A study of Mus musculus with 10 samples.

Results

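Zfp genes are mouse genes named for the zinc finger, a small protein fold held together by a zinc ion. Their mRNAs were followed here through the early serum response of fibroblasts, in RNA sorted by how many ribosomes it carried. Members were all probe sets (groups of short array probes for 1 transcript) whose platform annotation gave a single symbol of the form Zfp followed by a number. They came to 116 of the 12422 probe sets on the array that are not controls, and to 89 of 8251 named genes. All 116 matched the RefSeq gene table by gene identifier and carried the same symbol there.

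Most Zfp proteins hold tandem C2H2 fingers, which read DNA, and many of these also carry a KRAB domain that recruits the corepressor Trim28 and heterochromatin proteins. A smaller set holds CCCH fingers, which bind single-stranded RNA. The best known of that set are Zfp36 (tristetraprolin), Zfp36l1 and Zfp36l2, which bind AU-rich elements of short-lived mRNAs and bring in the deadenylase complex that starts their decay. Zfp36 is itself a classic serum-induced early gene of fibroblasts.

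The cells were primary mouse embryonic fibroblasts from e14.5 embryos, and the labels give their genotype as C57/BLACK6, ATF1 +/-, so all groups shared the disrupted copy of Atf1 and none had both copies intact. All cultures were starved for 48 h in 1% dialyzed fetal bovine serum and then held for 2 h in medium with 10% serum (serum groups) or 1% serum (starved groups). Cytoplasmic RNA came from cells without cycloheximide. Undertranslated RNA (no ribosome, a subunit or 1 ribosome) and polyribosome RNA (heavier fractions) came from sucrose gradients of cells given cycloheximide, which stalls ribosomes, at 100 ug/ml for 30 min. The 6 groups held 10 arrays: starved and serum-treated cytoplasmic RNA had 1 each, and the 4 gradient groups had 2 each. Cultures behind the second replicate of a gradient group had been given 4-thiouridine (200 uM) and 3H-cytidine, which mark new RNA, while those behind the first had not. Each gradient array read a pool of fractions from different biological and technical replicates, so the p-values measure the spread between pools. In fits without a term for replicate number, that spread includes any shift between labelled and unlabelled cultures. In every comparison, fewer cells of a type and less RNA per cell cannot be told apart.

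The deposited values are intensities in arbitrary units, with array medians of 5.7 to 8.8 in undertranslated RNA, 19.1 to 19.2 in cytoplasmic RNA and 45.3 to 54.2 in polyribosome RNA. A probe set was called above background on an array when it exceeded all 19 unspiked control probe sets for bacterial and yeast RNA. Between 43.4% and 53.5% of all probe sets passed this limit on undertranslated arrays and between 68.0% and 73.5% on polyribosome arrays. The ratio of the 3′ to the 5′ Actb probe set, a sign of RNA integrity and of amplification length, was 23.6 to 137 in undertranslated, 11.9 to 16.6 in cytoplasmic and 11.5 to 21.1 in polyribosome RNA. The same ratio for Gapdh ran otherwise, at 3.70 to 6.81 in undertranslated, 28.4 and 47.0 in cytoplasmic and 6.11 to 20.9 in polyribosome RNA. Of 13 fibroblast markers, 12 were above background on all 10 arrays. Levels below are log2 intensities after quantile normalization, called scaled levels, so they place an mRNA within its own array and not in absolute amount. Probe sets respond differently, so levels were compared between arrays and not between genes.

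Between 37.1% and 76.7% of Zfp probe sets were above background on an array, near the 43.4% to 73.5% of all probe sets. Of the 116 probe sets, 25 for 24 genes were above background on all 10 arrays, a share of 21.6% against 29.2% of all probe sets. A further 15 were above background on no array, 12.9% against 17.1% of all. On the polyribosome arrays 83 to 89 members were above background, and on the cytoplasmic arrays 77 (starved) and 63 (serum). On the undertranslated arrays the count was 66 and 65 in starved cells and 43 and 49 in serum-treated cells. The share of all probe sets above background was lower on the serum arrays too, at 53.3% and 53.5% against 43.4% and 44.9% in undertranslated RNA and 64.7% against 56.3% in cytoplasmic RNA. The 24 genes detected everywhere included all 3 members of the Zfp36 family, the ribosome-collision ubiquitin ligase Zfp598, the spindle assembly factor Zfp207, the histone methyltransferase cofactor Zfp644, the DBIRD splicing and elongation subunit Zfp326, and Zfp638, which acts with the HUSH silencing complex. After a filter on low mean level, 90 probe sets for 72 genes were tested and 26 were not. A member that passed only through its brighter groups is among the 90, so counts over them describe the measured probe sets and not all Zfp genes.

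**Figure D1:**
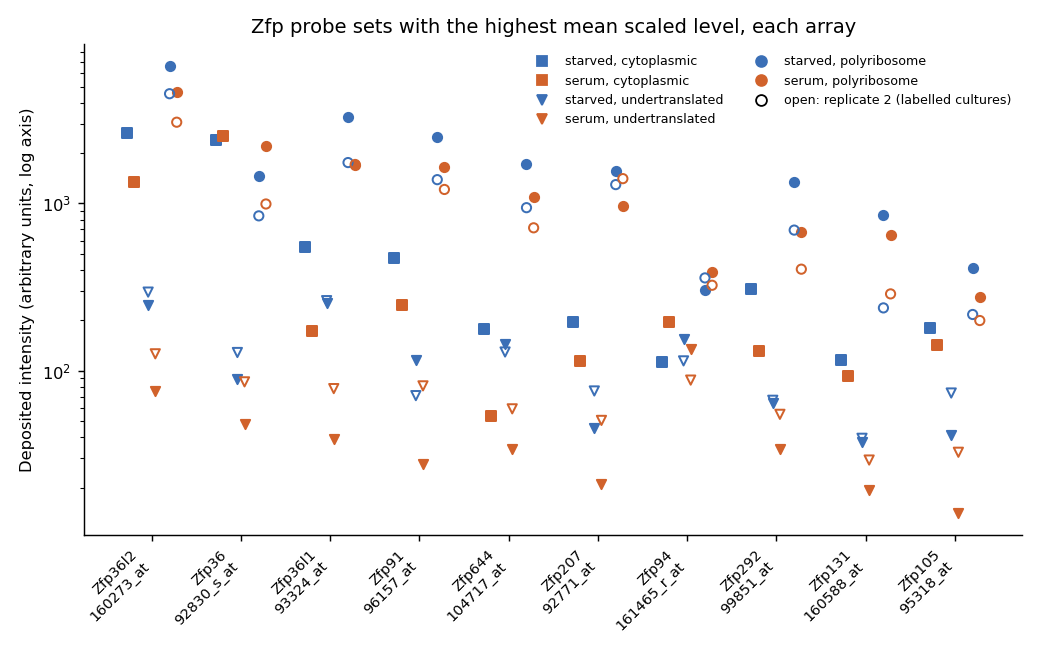
Deposited intensity (arbitrary units, log axis) of the 10 Zfp probe sets with the highest mean scaled level among those above background on all arrays; each point is 1 array, colour gives the serum state, shape the RNA pool, and open symbols are replicate 2. Undertranslated points lie below polyribosome points for all 10 probe sets, as did the array medians, and starved cytoplasmic Zfp36l1 (546) lies above serum cytoplasmic Zfp36l1 (173).

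The Zfp36 family gave strong signals in every pool. The upstream sequences of Zfp36 and Zfp36l1 are shown because these genes are followed below and because letter matches to motifs of serum-responsive factors lie close to their starts. No start region was listed for Zfp36l2, so none is shown. Both are the 250 bases before the annotated start, on the minus strand of GRCm38.p6 as listed by RefSeq, at chr7:28379229-28379478 for Zfp36 and chr12:80113014-80113263 for Zfp36l1. Capitals mark matches to the GC box (GGGCGG), the CArG box bound by serum response factor, the Egr site (GCGNGGGCG), or the AP-1 site (TGANTCA), on either strand.
Zfp36: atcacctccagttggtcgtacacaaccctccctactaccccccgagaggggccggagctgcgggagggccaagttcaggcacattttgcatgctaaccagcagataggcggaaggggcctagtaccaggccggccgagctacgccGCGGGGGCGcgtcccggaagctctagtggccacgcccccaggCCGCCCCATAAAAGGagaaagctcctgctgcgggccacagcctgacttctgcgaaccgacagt
Zfp36l1: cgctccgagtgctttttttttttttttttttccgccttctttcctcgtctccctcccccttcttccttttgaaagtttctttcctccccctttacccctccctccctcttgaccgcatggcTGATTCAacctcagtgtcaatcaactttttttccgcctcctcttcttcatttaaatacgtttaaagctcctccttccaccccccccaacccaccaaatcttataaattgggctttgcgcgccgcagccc

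The Zfp36 stretch held an Egr match starting 105 bases before the start, a GC box match at 63 and a CArG box match at 58, of which the last pair overlap. The Zfp36l1 stretch held an AP-1 match (TGATTCA, with T at the free letter N) at 129 bases before the start. Over windows of 250 bases before to 50 after each start, a CArG box match was present in 1.63% of 32851 listed starts and in 3 of 94 starts of Zfp genes (3.19%). An AP-1 match was present in 7.81% of all and 4.26% of Zfp starts. Listed starts were found for 73 of the 89 genes. The GC box was in 53.2% of Zfp starts against 35.7% of all, the Egr site in 10.6% against 5.55%, the Ets core (CCGGAAG) in 17% against 8.86%, the core of the cyclic AMP response element (TGACG) in 29.8% against 20.8%, and the E-box (CANNTG) in 63.8% against 72.3%. The Ets core and the E-box were counted but not marked above, though the Zfp36 stretch holds the letters CCGGAAG. A match is a run of letters and not a measured binding site.

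Zfp36 mRNA was read only by a probe set with the suffix _s. Affymetrix gave that suffix where probes are shared with related transcripts or a design rule is broken. Zfp36 stood higher in cytoplasmic RNA than in either gradient pool. Its scaled level was 11.24 (starved) and 11.27 (serum) in cytoplasmic RNA, 8.45, 8.58, 8.75 and 8.60 in undertranslated RNA (starved replicates 1 and 2, then serum), and 8.24, 7.86, 9.11 and 8.07 in polyribosome RNA in the same order. Both cytoplasmic arrays lay above all 8 gradient arrays. The polyribosome level was below the cytoplasmic level by a log2 difference of -2.93 ± 0.29 (SE, 4 against 2 arrays, limma adjusted p = 0.000584). The difference was below 0 also in the deposited values (-0.94), with array medians made equal (-2.20) and with hybridization controls made equal (-2.53). It was still called without the serum-treated cytoplasmic array, where most Zfp calls of this comparison were lost. Cytoplasmic cells had no cycloheximide and no gradient, so pool and handling cannot be told apart. In scaled levels undertranslated RNA lay below cytoplasmic RNA too, so the gap was not particular to polyribosome RNA. Between polyribosome and undertranslated RNA the scaled levels overlapped and differed by -0.27 ± 0.24 (adjusted p = 0.366). That sign is set by the scaling, since the difference was 1.46 with array medians made equal, against a median of 0.55 over all probe sets.

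Zfp36 did not pass either serum test at this time point. Deposited cytoplasmic intensities were 2390 starved and 2547 serum-treated, and polyribosome intensities were 1463 and 843 starved and 2214 and 993 serum-treated. Serum and starved arrays overlapped over these pools. The serum difference over polyribosome and cytoplasmic RNA was 0.37 ± 0.28 (3 against 3 arrays, adjusted p = 0.658), and in undertranslated RNA 0.15 ± 0.34 (2 against 2 arrays, adjusted p = 0.826), where the sign turned under each other scaling (-0.72 in the deposited values).

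Zfp36l2 and Zfp36l1 stood lower in serum-treated cells, without passing the test. The main Zfp36l2 probe set read 2628 starved and 1343 serum-treated in cytoplasmic RNA, 6609 and 4531 starved against 4637 and 3061 serum-treated in polyribosome RNA, and 247 and 295 starved against 75.5 and 126 serum-treated in undertranslated RNA. In scaled levels, the 3 starved arrays of polyribosome and cytoplasmic RNA (11.50, 11.27 and 10.72) all lay above the 3 serum arrays (10.14, 10.45 and 9.78). The difference was -1.04 ± 0.24 (adjusted p = 0.112). With the replicate number as a block, which removes the shift between labelled and unlabelled cultures, the adjusted p was 0.0266 at the same difference. It was 0.05 without serum polyribosome replicate 1 and 0.0379 without starved polyribosome replicate 2, and without the starved and the serum-treated cytoplasmic array it was 0.642 and 0.64. A second Zfp36l2 probe set of a kind that Affymetrix flagged for relaxed design rules (suffix _r_at) gave 0.68 ± 0.22 (adjusted p = 0.246), with signals of 21.6 to 79.3 in these pools. The 2 tested probe sets of this gene thus had opposite signs, and its remaining probe set was above background on no array.

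Zfp36l1 fell short of the threshold in both serum comparisons. Its scaled level in undertranslated RNA was 9.73 and 9.42 starved and 8.42 and 8.48 serum-treated, with no overlap, a difference of -1.13 ± 0.26 (2 against 2 arrays, adjusted p = 0.0831). It was called without serum undertranslated replicate 2 (-1.16, adjusted p = 0.034) and with array medians made equal (-1.96, adjusted p = 0.0426). Cytoplasmic intensity was 546 starved and 173 serum-treated. In polyribosome RNA intensities were 3268 and 1756 starved and 1698 and 1710 serum-treated, where starved replicate 1 stood apart from the other arrays. The difference over polyribosome and cytoplasmic RNA was -0.84 ± 0.26 (adjusted p = 0.237), and -1.13 without starved polyribosome replicate 2 (adjusted p = 0.0438).

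**Figure D2:**
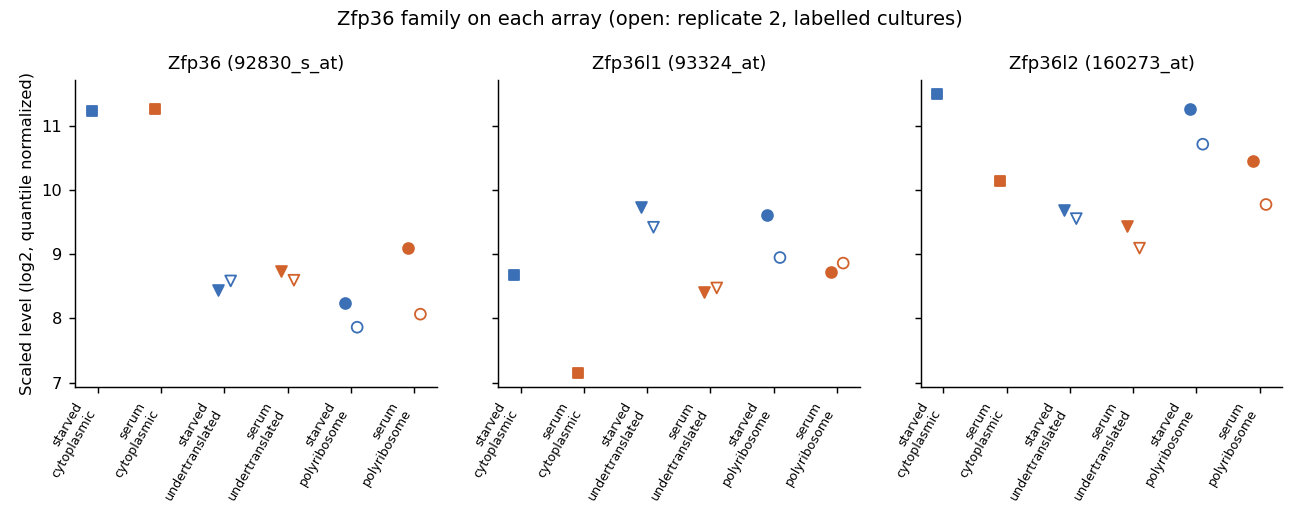
Scaled level (log2, quantile normalized) of Zfp36, Zfp36l1 and the main Zfp36l2 probe set on each of the 10 arrays, by serum state (blue starved, orange serum) and RNA pool; filled symbols are replicate 1 and open symbols replicate 2. Zfp36 is near 11.2 in cytoplasmic RNA and at 9.11 or below elsewhere, and the serum arrays of Zfp36l2 lie below the starved arrays of the same pool.

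Calls between the pools were not the same for the 3 paralogs. The main Zfp36l2 probe set stood higher in polyribosome than in undertranslated RNA, by 1.11 ± 0.20 (adjusted p = 0.00202). Its polyribosome scaled levels (9.78 to 11.27) lay above its undertranslated ones (9.10 to 9.68). The second Zfp36l2 probe set (93944_r_at) was at -0.27 ± 0.59 and was not called (adjusted p = 0.722). Zfp36l1 did not differ between these pools (0.03 ± 0.19, adjusted p = 0.918) but stood 1.12 ± 0.28 higher in polyribosome than in cytoplasmic RNA (adjusted p = 0.0173). That call was lost without the serum-treated cytoplasmic array (0.60, adjusted p = 0.326) and without serum polyribosome replicate 2 (1.02, adjusted p = 0.0554). Zfp36l2 did not pass against cytoplasmic RNA (-0.27 ± 0.25, adjusted p = 0.469). Differences between the paralogs were not tested.

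Among 21 tested genes linked to the Zfp36 family or to mRNA decay, 11 stood higher and 3 lower in polyribosome than in undertranslated RNA. Their median was 1.12 against 0.05 for all probe sets tested. Only 7 of the 22 listed genes on the array were above background on all 10 arrays, so sizes against the dim undertranslated pool are uncertain. Of all probe sets tested 28.8% stood higher and 25.3% lower. The largest were the decapping helicase Ddx6 (3.49 ± 0.56, adjusted p = 0.00118), the AU-rich element binder Elavl1 (2.58 ± 0.65, adjusted p = 0.0102) and Mapkapk2, the kinase that phosphorylates tristetraprolin (2.45 ± 0.66, adjusted p = 0.0138). Btg1 (-2.18 ± 0.24, adjusted p = 0.000209) was on the other side. None of the 21 was called in either serum comparison by limma.

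Across all tested Zfp probe sets, placement between polyribosome and undertranslated RNA varied widely. In this comparison (4 against 4 arrays) 35 of 90 were called, against 54.1% of all probe sets tested. Of these 14 stood higher in polyribosome RNA, where 28.8% of all did, and 21 lower, where 25.3% of all did. The 2 tested members that were above background on no array are among the 21, and another of them was above background on only 1 array. The share of members called was thus 38.9%, below the background. Their median difference was -0.25 and that of all probe sets 0.05. Among the 29 members above background on all 8 gradient arrays, 14 were called against 63.8% of all such probe sets, 2 higher and 12 lower. All such probe sets leaned the same way, with 792 of the 2414 called being higher and the rest lower.

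These directions are relative to each array's distribution. In the deposited values, where polyribosome arrays are brighter throughout, all probe sets had a median of 3.02 and no member lay below 0, with 86 called higher. With array medians made equal the median of all was 0.55, with 26 members called higher and 17 lower, and with hybridization controls made equal it was 3.33, with 89 called higher. Of all probe sets tested, 8595, 6347 and 8886 were called under these scalings in the same order, in either direction. Set against the median of all probe sets, the members' median was lower by 0.30 in scaled levels and by 0.38 under the other scalings. Those scalings differ from each other only by a constant per array. A value set against that median is therefore the same under each of them, and they count as a single alternative. Of the 35 called members 33 could be tested under those scalings, and all 14 higher and 19 lower ones kept their side of that median. Higher and lower below are meant in that sense. Fewer members were called when starved polyribosome replicate 1, starved replicate 2 or serum replicate 2 was left out, each of which leaves a single array in a group.

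Zfp106, an RNA-binding protein needed by motor neurons, had the largest rise. Its probe set 95533_at had scaled levels of 3.43, 4.68, 2.58 and 4.18 in undertranslated RNA (starved replicates 1 and 2, then serum) and 7.24, 7.50, 7.01 and 7.49 in polyribosome RNA. The pools did not overlap and differed by 3.59 ± 0.44 (adjusted p = 0.0003), and it was above background on only 1 of the 4 undertranslated arrays. A second Zfp106 probe set, 101456_at, ran the other way, from 5.54 to 7.96 in undertranslated RNA (6.25, 5.54, 7.96 and 7.15) down to 3.01, 4.36, 4.84 and 4.64 in polyribosome RNA, a difference of -2.51 ± 0.39 (adjusted p = 0.000988). Both were called, and they lay on opposite sides of the median of all probe sets with and without quantile normalization, so these data give no single direction for the gene.

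The other members with the largest rises were Zfp871 (2.54 ± 0.29, adjusted p = 0.000239, above background on 2 of 4 undertranslated arrays) and Zfp281, a repressor of pluripotency genes (1.98 ± 0.58, adjusted p = 0.0197). The Zfp281 call was lost without either starved undertranslated array or either replicate 1 polyribosome array, with adjusted p from 0.0608 to 0.0743. For Zfp277, a partner of Polycomb repressive complex proteins, probe set 94937_at was above background on no undertranslated array, and its polyribosome level was at least 1.66-fold higher (adjusted p = 0.000388). Zfp692 and Zfp282 were also called (adjusted p = 0.0243 and 0.012) but were not well above background in undertranslated RNA and have no bound above 1. Zfp207, which escorts the checkpoint protein Bub3 to kinetochores, stood 0.69 ± 0.23 higher (adjusted p = 0.0333).

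Zfp385a, which binds double-stranded RNA and the tumour suppressor p53, was the lowest of the members called. Its scaled levels were 7.15, 7.09, 8.19 and 7.67 in undertranslated RNA and 5.29, 4.59, 4.83 and 5.15 in polyribosome RNA, with no overlap. The difference was -2.56 ± 0.27 (adjusted p = 0.00016). Its deposited intensity moved little between pools that differ severalfold in median, from 34.6 to 44.8 in undertranslated and 54 to 123 in polyribosome RNA. Zfp688 (-2.04 ± 0.43, adjusted p = 0.00453) and Zfp598 (-1.29 ± 0.26, adjusted p = 0.0034) also lay on the undertranslated side. Zfp598 marks collided ribosomes with ubiquitin, and its intensities were 42.7, 36.1, 25.9 and 30.8 in undertranslated against 250, 177, 165 and 174 in polyribosome RNA.

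Probe set design went with the direction. Affymetrix gave the suffixes _f, _i, _r and _s to probe sets that share probes with related transcripts or break a design rule, which is common in large gene families. Of 68 tested members with the plain suffix, 14 were higher and 14 lower. Of 22 with another suffix, 0 were higher and 7 lower, and the 7 include the 2 tested members that were above background on no array. Over all probe sets tested the shares were 31.4% higher and 22.6% lower for the plain suffix and 19.1% and 35.6% for the others. Zfp94 (161465_r_at, -2.45 ± 0.34), Zfp930 (94111_r_at, -2.29 ± 0.27) and Zfp93 (162105_r_at, -2.06 ± 0.26) were of the second kind, with adjusted p = 0.000593, 0.000277 and 0.000352. The 3′ to 5′ ratios of Actb and Gapdh also differed between the pools, in opposite directions between undertranslated and cytoplasmic RNA, and the part of probe design or of these ratios in the differences was not tested.

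For 4 more genes with a called probe set, besides Zfp106 and Zfp36l2, the probe sets lay on opposite sides of 0. Zfp277 was at -0.92 ± 0.35 with its other probe set (161334_r_at, adjusted p = 0.0534), which was above background on 3 of the 4 undertranslated arrays. Zfp91, a zinc finger protein with ubiquitin ligase activity, was at -1.16 ± 0.24 with 94064_at (adjusted p = 0.00393) and 0.45 ± 0.27 with 96157_at (adjusted p = 0.184). Zfp93 was at 0.12 ± 0.70 with 92990_at, and Zfp787 at -1.40 ± 0.37, -0.55 ± 0.42 and 0.94 ± 0.81 with 3 probe sets, of which the first was called (103478_at, adjusted p = 0.0122). Of the 89 genes 22 had several probe sets, so a value for 1 probe set is not always a value for the gene.

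**Figure D3:**
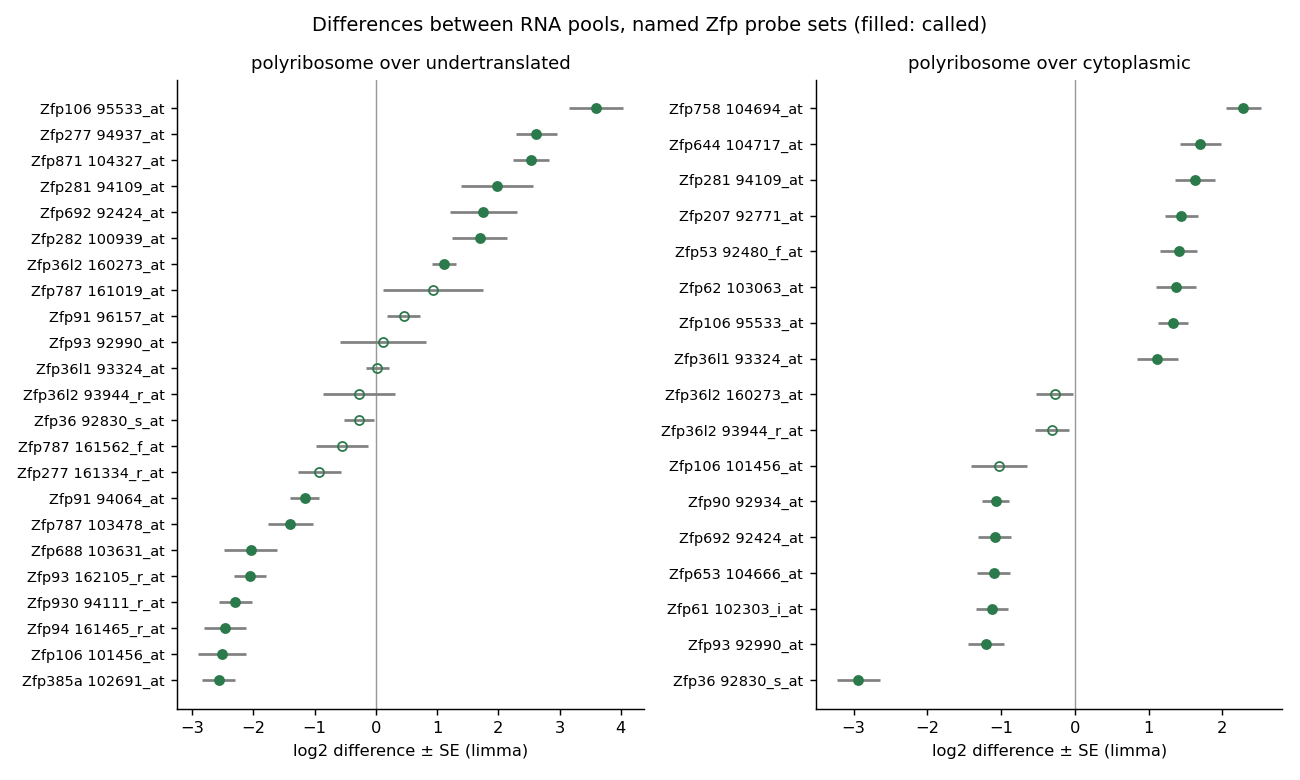
Log2 differences ± SE (limma) of the named Zfp probe sets between polyribosome and undertranslated RNA (left, 4 against 4 arrays) and between polyribosome and cytoplasmic RNA (right, 4 against 2 arrays); filled points were called at the adjusted threshold. Zfp106 appears at both ends of the left panel, and Zfp36 lies at -2.93 on the right.

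The KRAB corepressor and heterochromatin genes lay on both sides, as did all probe sets, of which 28.8% were higher and 25.3% lower. Of 15 tested, 6 were higher and 4 lower in polyribosome than in undertranslated RNA, with a median of 0.36. Trim28, the corepressor itself, stood 2.82 ± 0.51 higher (adjusted p = 0.00206) and Hdac1 1.99 ± 0.43 higher (adjusted p = 0.00525), while the chromatin remodeller Smarcad1 was at -2.09 ± 0.35 (adjusted p = 0.00134). Of 41 tested C2H2 genes under other symbols 8 were higher and 5 lower, with a median of -0.33. Ctcf, the insulator protein, stood 4.25 ± 0.35 higher (adjusted p = 6.65e-05), Yy1 2.50 ± 0.64 (adjusted p = 0.0112) and Plagl1 2.32 ± 0.61 higher (adjusted p = 0.0118). Of the 52 such C2H2 genes on the array 10 were above background on all 10 arrays, and of the 16 corepressor and heterochromatin genes 10. Sizes in both lists are therefore uncertain. Of 13 fibroblast markers 6 were higher and 5 lower.

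Between polyribosome and cytoplasmic RNA the called Zfp probe sets split evenly. In this comparison 26 of 90 members were called, against 26.5% of all probe sets. They were 13 higher and 13 lower, while 1350 of all 9316 tested were higher and 1115 lower. The members' median was -0.06. All 26 kept their side of the median of all probe sets under the other scalings, which give the same answer by construction. In the deposited values, where that median was 1.31, 64 members were called higher and 1 lower, with 7153 of all probe sets called. With array medians made equal the members called were 15 higher and 10 lower, and with hybridization controls made equal 10 and 15, where 2456 and 1948 of all probe sets were called. Fewer members were called without either cytoplasmic array, and most of the calls were lost without the serum-treated one. The cytoplasmic side has 1 array per serum state.

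Zfp758 had the largest rise. Its scaled level was 3.75 and 2.47 in cytoplasmic RNA (starved, serum) and 5.84, 5.48, 5.05 and 5.21 in polyribosome RNA (starved replicates 1 and 2, then serum). The pools did not overlap and differed by 2.29 ± 0.24 (adjusted p = 0.000736). It was above background on the starved cytoplasmic array (10.9, limit 8.2) but not on the serum-treated one (3.7, limit 13.8), so the size is uncertain. Zfp644, a cofactor of the H3K9 methyltransferases G9a and GLP, was at 7.06 and 5.66 in cytoplasmic and 8.49, 8.01, 8.10 and 7.64 in polyribosome RNA, a difference of 1.70 ± 0.28 (adjusted p = 0.00281). Zfp207 was at 7.17 and 6.61 against 8.33, 8.47, 7.96 and 8.59, a difference of 1.45 ± 0.23 (adjusted p = 0.00255). Zfp281 stood 1.63 ± 0.27 higher (adjusted p = 0.0033). Zfp758, Zfp644 and Zfp207 were each higher in all 4 polyribosome arrays than in both cytoplasmic arrays.

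Zfp53 stood 1.41 ± 0.25 higher, Zfp62 1.37 ± 0.27 and the Zfp106 probe set 95533_at 1.33 ± 0.21, with adjusted p between 0.00253 and 0.00707. Zfp53 was not above background on the serum-treated cytoplasmic array (8.2, limit 13.8). The other Zfp106 probe set, 101456_at, was at -1.03 ± 0.38 and was not called (adjusted p = 0.0745). Zfp326, which lies within 5 coding genes of Zfp644 in the RefSeq gene order, stood 1.04 ± 0.22 higher (adjusted p = 0.00802). On the other side lay Zfp93 (92990_at, -1.20 ± 0.24), Zfp61 (-1.13 ± 0.22), Zfp653 (-1.10 ± 0.22), Zfp692 (-1.09 ± 0.23) and Zfp90 (-1.07 ± 0.19), with adjusted p between 0.00381 and 0.00858. Zfp598 was also lower, by -0.79 ± 0.18 (adjusted p = 0.0123), so it lay below both other pools. Zfp61, Zfp93 and Zfp94 are near neighbours in the gene order. The other Zfp93 probe set (162105_r_at) overlapped between the pools, at 4.71 and 4.94 in cytoplasmic and 4.56 to 4.87 in polyribosome RNA. Zfp94 (161465_r_at) overlapped too, at 6.48 and 7.30 against 6.28 to 6.82.

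No Zfp probe set passed the test for serum. Over polyribosome and cytoplasmic RNA (3 against 3 arrays) limma called 0 of 90, against 0.891% of all probe sets tested, and 26 members had an unadjusted p under 0.05. That is 28.9% of the members and 11.8% of all probe sets, and 22 of the 26 were lower in serum-treated cells. The members' median difference was -0.16 and that of all probe sets -0.01, and 61 of 90 members (67.8%) lay below 0 against 51.3% of all. Members of 1 RNA sample are not independent, so these shares are a description.

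The lower placing was present with each array left out. The members' median lay below that of all probe sets by 0.10 (without starved polyribosome replicate 1) to 0.24 (without starved polyribosome replicate 2), with 58 to 66 of 90 members under it. Under the other scalings, which give the same value by construction, the distance was 0.23, with 62 of 90. Taken by gene, 50 of 72 lay below 0. Other C2H2 genes had a median of -0.13 with 27 of 41 below 0, and the KRAB partners -0.02 with 8 of 15. Zscan21 was the 1 gene called among these lists (-0.94 ± 0.17, adjusted p = 0.0387).

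After Zfp36l2, the members with the smallest p were Zfp637, Zfp688 and Zfp110. Zfp637 was at 5.7, 5.75 and 5.62 in starved cells (cytoplasmic, then polyribosome replicates 1 and 2) and 4.91, 4.75 and 5.22 in serum-treated cells, a difference of -0.73 ± 0.19 (adjusted p = 0.159). Zfp688 was at 4.64, 4.27 and 4.19 against 4.17, 3.05 and 3.24, a difference of -0.88 ± 0.23 (adjusted p = 0.159). Zfp110, which binds the neurotrophin receptor p75, was at 5.43, 5.19 and 4.92 against 4.78, 4.45 and 4.32, a difference of -0.67 ± 0.18 (adjusted p = 0.18). None passed. All 3 were chosen by their small p in this comparison, so the gap between their serum and starved arrays adds no further support. Zfp637 was called with hybridization controls made equal (-1.31, adjusted p = 0.0487).

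Macrophage markers rose with serum in the same arrays. Of 9 tested, 5 rose (Lyz2, Tyrobp, Laptm5, Ctss and Cd14), with a list median of 1.1. The summed intensity of the 13 markers was 1328 to 1613 in starved and 4030 to 5044 in serum-treated polyribosome RNA, and 398 and 878 in cytoplasmic RNA. Between 7 and 11 of the 13 were above background on these arrays. Their part in the placing of the Zfp mRNAs was not tested. Of 13 fibroblast markers 0 were called by limma in this comparison.

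**Figure D4:**
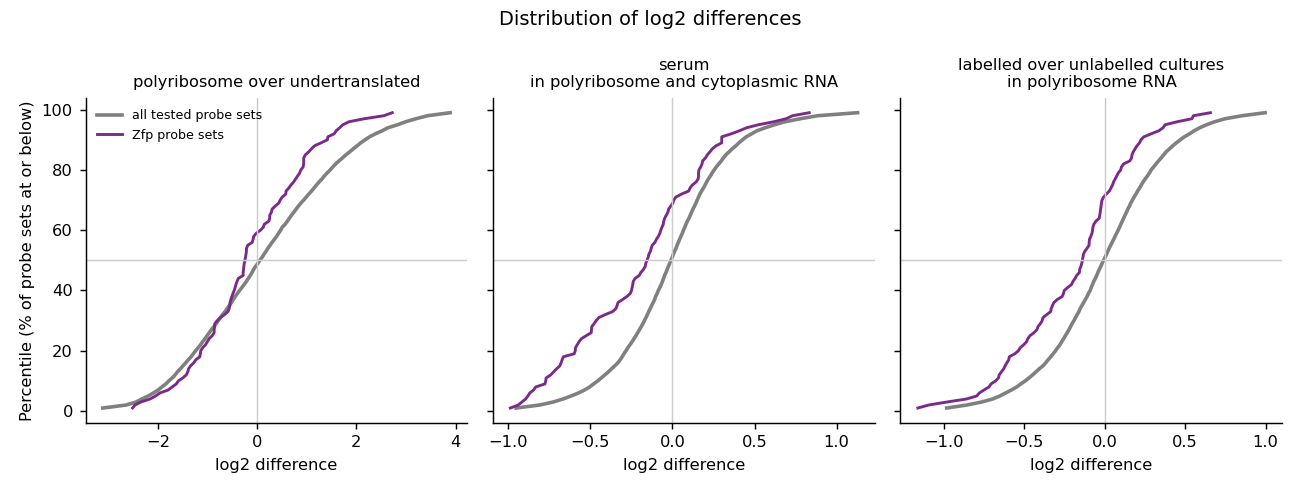
Cumulative distribution of log2 differences for the 90 tested Zfp probe sets (purple) and all 9316 tested probe sets (grey): polyribosome over undertranslated, serum over starved, and labelled over unlabelled cultures. The purple curve crosses 50% at -0.25, -0.16 and -0.14 and the grey curve at 0.05, -0.01 and -0.01.

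In undertranslated RNA serum gave 0 called members by limma, against 1.07% of all probe sets, and 16 with an unadjusted p under 0.05, which is 17.8% of members and 18.8% of all. The members' median was -0.15 and that of all probe sets -0.04. The replicates of serum-treated undertranslated RNA were the least alike, with a median SD of 0.53 over members against 0.33 in the starved pair, and 0.24 (starved) and 0.17 (serum) in polyribosome RNA. More members were called without serum undertranslated replicate 2 than without replicate 1. Both fits leave a single array in that group, so no result about the members is read from them. Besides Zfp36l1, the smallest p-values belonged to Zfp638 (162409_r_at, adjusted p = 0.0897), Zfp277 (94937_at, adjusted p = 0.107) and Zfp90 (adjusted p = 0.134). The Zfp638 and Zfp277 probe sets were not above background on any undertranslated array, so no difference is given for them. Zfp90 was above background on both starved arrays (11.4 and 14.6) and on neither serum array (0.5 and 6.1), so its starved level has only a bound over its serum level, at least 1.33-fold, and did not pass the test.

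Whether serum acted differently in the 2 gradient pools was tested by the interaction of serum and pool. It called 0 members and 0% of all probe sets by limma, with 3 members and 722 of all probe sets under an unadjusted p of 0.05. The smallest p-values were those of Zfp638 (162409_r_at, adjusted p = 0.486), Zfp746, a repressor targeted by parkin (adjusted p = 0.633), Zfp982 (adjusted p = 0.641) and Zfp277 (94937_at, adjusted p = 0.665). Zfp982 was above background on 0 of the 10 arrays, the Zfp638 and Zfp277 probe sets on no undertranslated array, and Zfp746 on no serum undertranslated array, so no size is given for these. For the family these were 0.38 ± 0.49 for Zfp36, 0.64 ± 0.37 for Zfp36l1 and -0.53 ± 0.40 for Zfp36l2, the last of which was above 0 under each other scaling (0.91 in the deposited values). Without serum undertranslated replicate 2 the interaction did call members. That fit leaves a single array in the group, so no result about the members is read from it.

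Labelling with 4-thiouridine and 3H-cytidine was compared in polyribosome RNA, a comparison added after the data were seen. With serum state in the model (2 against 2 arrays) limma called 0 members, against 0.0107% of all probe sets, and 20 had an unadjusted p under 0.05, of which 19 were lower in labelled cultures. The 20 are 22.2% of members, against 17.4% of all probe sets. The members' median was -0.14 and that of all probe sets -0.01, and 64 of 90 members (71.1%) lay below 0 against 50.8% of all. The fit leaves 1 residual degree of freedom. Its count of members was 13 in the deposited values, 6 with array medians made equal and 3 with hybridization controls made equal, where 532, 350 and 128 of all probe sets were called.

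Zfp131, a BTB zinc finger transcription factor, had the smallest p. Its polyribosome intensities were 852 and 652 in unlabelled (starved, serum) and 237 and 288 in labelled cultures. The labelled arrays lay below the unlabelled ones, with a difference of -1.08 ± 0.17 (adjusted p = 0.0896). Next came Zfp871 (-0.79 ± 0.16), Zfp37 (-0.80 ± 0.19) and Zfp28 (-1.20 ± 0.31), with adjusted p from 0.098 to 0.129. Zfp36 read -0.71 ± 0.20 (adjusted p = 0.144) and Zfp36l2 -0.61 ± 0.17 (adjusted p = 0.147). In undertranslated RNA Zfp131 read 37.4 and 19.3 unlabelled and 39.4 and 29.2 labelled, so the gap was seen in polyribosome RNA. Label and replicate number coincide and cannot be told apart.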

How the data were processed

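Intensities of 12488 probe sets on 10 Affymetrix arrays were used as deposited by the authors, linear and 1 per probe set. RNA was amplified linearly and labelled with biotin, per the labels' protocols. How probes were summarised or scaled is not given in the sources used here. Values were taken as log2(value + 1.5), the 10th percentile of all values, and quantile normalized, since array medians differed by over 0.25. A filter on the mean over all arrays removed the lowest 25 percent of probe sets and kept 9316. To these limma 3.58.1 (R 4.3.3; lmFit, eBayes with trend) was fitted, two-sided, with Benjamini-Hochberg adjustment at 0.05, on 8 gradient arrays or on 6 polyribosome and cytoplasmic arrays. Fits were tested on simulated data. Bounds set the bright mean against the dim side's lowest level above background.

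Named were the Zfp36 family, the 10 probe sets highest in scaled level among those above background everywhere, the 6 largest called rises and falls, the 4 smallest p-values where under 3 were called, genes whose probe sets disagree, and up to 3 called genes per list. Zfp598, Zfp207, Zfp326 and Btg1 were named in pool comparisons after their values were seen. The members and lists were chosen with earlier results of these data known. Replicate number 2 marks labelled cultures. Deviations of same-numbered arrays correlated at 0.275 between polyribosome groups and at 0.0167 to 0.0534 otherwise. Alternatives were other scalings, pseudocounts and filters, no trend, 1 probe set per gene, the replicate block and each array left out.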

Additional observations from a re-analysis of the deposited data

How the results depend on the processing

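With unscaled deposited values and with hybridization control scaling, members called between polyribosome and undertranslated RNA were 86 and 89, with probe sets above background on all arrays 16, and with single arrays left out 21 to 45. The corresponding lowest and highest counts with single arrays left out were 2 to 27 against cytoplasmic RNA (65 with values as deposited), 0 to 2 for serum over polyribosome and cytoplasmic RNA (1 with hybridization control scaling), 0 to 24 for serum in undertranslated RNA (1 with median centring, 1 with no variance trend) and 0 to 10 for the interaction. With the replicate block 1 member, Zfp36l2, was called for serum over polyribosome and cytoplasmic RNA, and Zfp36l2 stood at 0.035 against cytoplasmic RNA; it moved the other counts by less than 1.5 times. Labelling called 13, 6 and 3 members with values as deposited, median centring and hybridization control scaling, where 532, 350 and 128 of all probe sets were called. It called 1 each with a pseudocount of 4 and with probe sets above background on all arrays.

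Signs turned under other scalings, under the block and with single arrays left out. Under unscaled values and under hybridization control scaling the polyribosome over undertranslated difference was 3.93 and 4.24 for Zfp36, 2.30 and 2.61 for Zfp36l2 (93944_r_at), 0.99 and 1.30 for Zfp385a, 0.69 and 1.00 for Zfp106 (101456_at), 1.50 and 1.81 for Zfp94, 0.98 and 1.29 for Zfp930, 1.29 and 1.6 for Zfp93 (162105_r_at), 0.74 and 1.05 for Zfp688, 1.54 and 1.85 for Zfp277 (161334_r_at), 0.89 and 1.20 for Zfp787 (103478_at), 2.24 and 2.55 for Zfp787 (161562_f_at), and 2.67 and 2.98 for Zfp91 (94064_at). Median centring gave 1.46 for Zfp36, 0.21 for Zfp91 (94064_at) and -0.36 for Zfp93 (92990_at). Serum in undertranslated RNA turned to -0.72, -0.49 and -0.67 for Zfp36 with values as deposited, median centring and hybridization control scaling, and the interaction to 0.91, 0.79 and 0.53 for Zfp36l2. Against cytoplasmic RNA the deposited values gave 1.27 and 0.91 for the 2 Zfp36l2 probe sets, 0.089 for Zfp90 and 0.0467 for Zfp106 (101456_at), and median centring 0.0142 for Zfp36l2. Labelling gave -0.0549 and -0.17 for Zfp36l2 (93944_r_at) with values as deposited and hybridization control scaling. With single arrays left out, ranges that crossed 0 were -0.57 to 0.81 for Zfp93 (92990_at), -0.14 to 0.19 for Zfp36l1 and -0.92 to 0.39 for Zfp36l2 (93944_r_at) between gradient pools, -1.37 to 1.24 for Zfp36l2 (93944_r_at) for serum in undertranslated RNA, and -0.44 to 2.18 for Zfp36l2 (93944_r_at) and -0.14 to 0.90 for Zfp36 in the interaction. The cause was not tested. Of 409 values of named members between gradient pools 344 kept direction and side of the threshold, and of 117 in the main serum comparison 112. Signals near background on undertranslated arrays and 1 or 2 arrays per group limit the precision.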
